A study of Mus musculus with 7 samples.

Results

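Dividing activated double-negative T (DNT) cells were chosen by measured RNA, as the barcodes of the 2 activated DNT libraries that carried at least 1 UMI of 5 or more of 8 mitosis and G2 genes, Top2a, Mki67, Birc5, Ccna2, Cdk1, Ccnb1, Cdc20 and Ube2c. The rule gave 542 of the 3340 activated barcodes that passed quality limits of 200 genes or more and 10% mitochondrial UMIs or fewer, and the series held 28101 such barcodes in 7 libraries. A UMI is a molecular tag that counts each captured RNA molecule once. DNT cells are T cells with an αβ receptor and neither CD4 nor CD8. All libraries came from the spleen of male C57BL/6 mice aged 8 weeks. Naive DNT cells (2 libraries) were sorted as CD3+ NK1.1- TCRαβ+ TCRγδ- CD4- CD8- cells that did not bind CD1d loaded with αGal or LPC, and activated DNT cells (2 libraries) were such cells after 3 days of culture with antibodies to CD3 and CD28 and IL-2 at 20 ng/ml. The CD4, CD8 and TCRab libraries (1 each) were αβ T cells sorted in the same CD3+ NK1.1- TCRγδ- gate as CD4+ CD8-, as CD4- CD8+ and without a CD4 or CD8 gate, and were not cultured. Replicate 1 of the activated cells was made with 10x kit v2 and replicate 2 with kit v3, so replicate and kit cannot be told apart, and how many mice were pooled is not given in the labels.

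A cell that divides passes through a fixed order of steps. In late G1, MCM helicases are loaded on replication origins and E2F factors turn on the genes of DNA synthesis. In S phase the DNA is copied and packed with new histones, and in G2 and mitosis cyclin B and CDK1, the kinetochores that grip the chromosomes and the spindle separate the copies, until the anaphase-promoting complex with CDC20 destroys cyclin B. Naive T cells in the spleen rest outside this cycle, and signals through the T cell receptor, CD28 and IL-2 bring them into it.

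The 2 activated libraries held dividing cells in unequal shares. Replicate 1 had 367 dividing cells among 1791 barcodes, or 20.5% (95% exact binomial interval 18.6% to 22.4%). Replicate 2 had 175 among 1549, or 11.3% (9.76% to 13%). Between the dividing cells and the 2412 low-marker cells, which had at most 1 of the 8 genes, lay 386 cells with 2 to 4 of them. The same rule held for 0.123% (Naive DNT replicate 1, 5 of 4049) to 0.623% (CD8, 29 of 4655) of the barcodes of the 5 libraries that were not cultured. The rule chose those few barcodes by the same genes, so their levels are a description. After thinning, Birc5 stood at 400 to 884 CPM, against 250 and 240 CPM in the activated dividing cells. Ccnb1 stood at 0 to 250 CPM, against 36.8 and 58.6 CPM. The low ends, 400 and 0 CPM, came from the 5 cells of Naive DNT replicate 1. Ccna2, Cdk1, Cdc20 and Ube2c lay above both activated libraries, as Birc5 did. Top2a, at 461 to 730 CPM, and Mki67, at 184 to 660 CPM, overlapped replicate 2, with 489 and 250 CPM. These CPM are without the TMM scaling used for the other genes below. The part of depth in these levels was not tested. These intervals cover counting error only, and with 1 or 2 libraries a group no test between groups was made.

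The shares depended on depth. Dividing cells had a median of 30092 UMIs against 10921 in the low-marker cells of replicate 1, and 49024 against 8311 in replicate 2. Random thinning to 4000 UMIs before the rule was applied used only barcodes with at least 4000 UMIs. These were all 1791 of replicate 1 and 1336 of 1549 of replicate 2. In the uncultured libraries they ranged from 2102 of 4294 (TCRab) to 6267 of 6728 (Naive DNT replicate 2). Of these barcodes, 2.85% of replicate 1 (2.13% to 3.73%) and 3.44% of replicate 2 (2.53% to 4.57%) met the rule, against 0.186% to 0.567% in the uncultured libraries. The activated libraries stood above the uncultured ones at both depths, while the order of the 2 activated replicates changed, with overlapping intervals. A larger cell holds more RNA, and here the size of a cell, its depth and the number of rule genes seen could not be told apart.

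**Figure D1:**
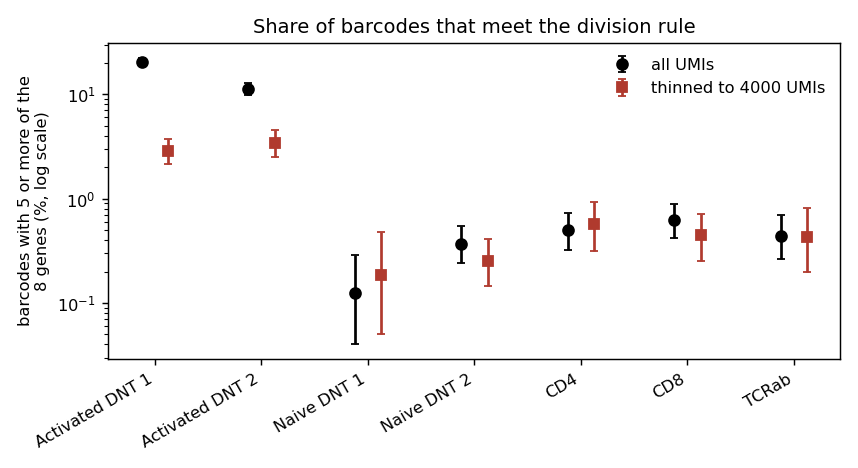
Percent of kept barcodes (log scale) in each of the 7 libraries that carried 5 or more of the 8 rule genes, with all UMIs (circles) and after thinning to 4000 UMIs (squares). The squares cover only barcodes with at least 4000 UMIs, and bars are 95% exact binomial intervals. The activated libraries sat at 20.5% and 11.3% with all UMIs and at 2.85% and 3.44% after thinning, and the uncultured libraries below 1% throughout.

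The number of rule genes per barcode had a low point just at the threshold. In replicate 1, 727 barcodes had none of the 8 genes, 56 had 4, 48 had 5 and 129 had all 8. In replicate 2 these numbers were 1001, 20, 18 and 103. Barcodes just outside the rule, with 4 genes, had a median of 24882 and 30377 UMIs in replicates 1 and 2, and those just inside it, with 5, had 24499 and 38392. Cells on the 2 sides of the threshold were thus few and, in replicate 1, of like depth.

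**Figure D2:**
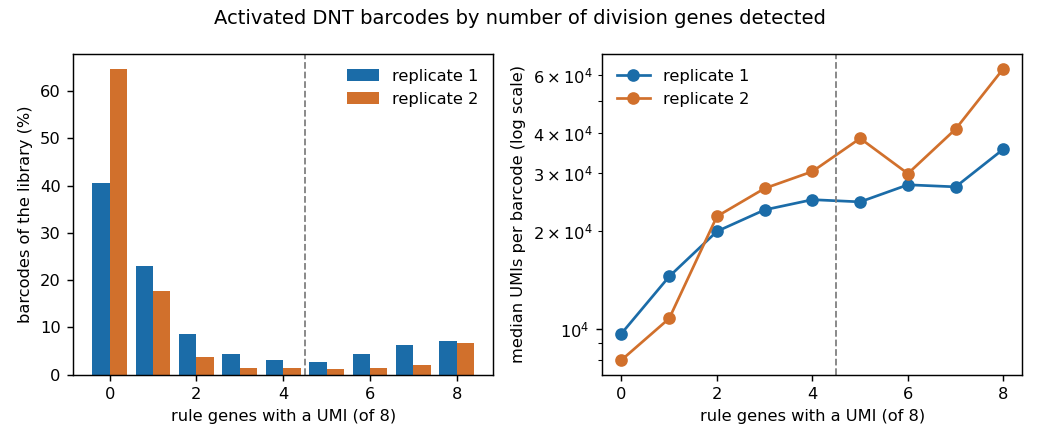
Left, percent of barcodes of each activated library by the number of the 8 rule genes with a UMI; right, their median UMIs (log scale). The dashed line marks the rule; barcodes with none of the genes had medians of 9652 and 8001 UMIs, and those with all 8 had 35566 and 62863.

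The 8 rule genes chose the cells, so their levels are given as a description. Top2a, the topoisomerase that untangles sister DNA (chr11:98992943-99024189), had a mean of 7.51 UMIs per dividing cell in replicate 1 and 26.3 in replicate 2, and was seen in 97.8% and 99.4% of them. Birc5 (survivin, of the chromosomal passenger complex, chr11:117849251-117855743) was seen in 98.9% of dividing cells in both replicates. Ccnb1 (cyclin B1, chr13:100778650-100786570) was the rule gene seen least, in 62.7% and 74.3%. Ube2c, the E2 enzyme that works with the anaphase-promoting complex (chr2:164769898-164778822), had a median of 5 UMIs in both replicates and a maximum of 65 and 199. In low-marker cells the share with a UMI was between 0.549% (Ccna2, replicate 2) and 7.56% (Cdc20, replicate 1).

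Promoters of the rule genes are shown because many genes of G2 and mitosis are known to carry a short element called the cell cycle genes homology region (CHR), bound by the DREAM and MuvB complexes. The sequences run from 250 bases before to 50 bases after the start in RefSeq (build GRCm38.p6), 5′ to 3′ on the gene's strand, and capitals mark the CHR letters TTTGAA or, on the other strand, TTCAAA. They lie at chr10:69352863-69353162 (minus strand), chr4:118437294-118437593 (minus), chr2:164769679-164769978 (plus), chr11:99024140-99024439 (minus) and chr7:135716330-135716629 (minus).
Cdk1: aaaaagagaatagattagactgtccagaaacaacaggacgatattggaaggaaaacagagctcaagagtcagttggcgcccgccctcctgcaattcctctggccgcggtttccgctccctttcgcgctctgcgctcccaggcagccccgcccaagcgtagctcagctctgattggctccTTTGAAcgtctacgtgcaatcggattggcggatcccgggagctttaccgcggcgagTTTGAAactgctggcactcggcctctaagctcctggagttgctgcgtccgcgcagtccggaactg
Cdc20: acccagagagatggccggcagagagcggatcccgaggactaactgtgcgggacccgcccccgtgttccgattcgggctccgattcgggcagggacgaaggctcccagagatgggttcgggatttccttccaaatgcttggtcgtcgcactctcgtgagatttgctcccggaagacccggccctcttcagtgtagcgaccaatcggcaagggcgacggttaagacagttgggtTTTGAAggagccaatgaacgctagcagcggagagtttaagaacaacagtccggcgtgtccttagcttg
Ube2c: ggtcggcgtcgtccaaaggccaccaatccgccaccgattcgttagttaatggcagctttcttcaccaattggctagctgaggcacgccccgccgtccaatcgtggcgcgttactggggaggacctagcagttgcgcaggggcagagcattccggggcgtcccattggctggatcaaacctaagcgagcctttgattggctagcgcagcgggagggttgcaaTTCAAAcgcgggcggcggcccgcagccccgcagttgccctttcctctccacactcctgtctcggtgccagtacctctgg
Top2a: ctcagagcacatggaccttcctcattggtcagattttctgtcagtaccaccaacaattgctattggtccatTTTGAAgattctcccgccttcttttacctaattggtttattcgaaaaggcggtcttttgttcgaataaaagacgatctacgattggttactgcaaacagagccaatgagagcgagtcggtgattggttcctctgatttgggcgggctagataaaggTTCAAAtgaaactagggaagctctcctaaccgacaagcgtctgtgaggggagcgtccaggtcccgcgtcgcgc
Mki67: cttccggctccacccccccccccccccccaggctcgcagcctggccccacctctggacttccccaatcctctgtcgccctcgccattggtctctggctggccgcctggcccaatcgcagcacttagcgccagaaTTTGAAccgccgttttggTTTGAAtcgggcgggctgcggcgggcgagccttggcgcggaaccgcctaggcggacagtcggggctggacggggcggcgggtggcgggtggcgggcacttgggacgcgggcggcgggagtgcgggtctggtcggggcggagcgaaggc

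The CHR letters were in the promoters of these 5 of the 7 rule genes that had an entry in the table, and not in those of Birc5 and Ccnb1. In Cdk1, Cdc20, Ube2c and Top2a the first base of the copy nearest the start lay at -15, -18, -29 and -23 relative to the start. Over 32851 promoters of the same length the letters, on either strand, were in 17.9%, and over the promoters of the genes tested below in 12%. In the 78 promoters of the kinetochore, spindle and mitotic entry lists described below they were in 59.0%, and in the 56 of the licensing and DNA synthesis lists in 17.9%. The E2F letters TTTCCCGC and TTTGGCGC, searched on both strands, had the other order: 1.56% of all promoters, 5.13% of the mitotic lists and 23.2% of the licensing and DNA synthesis lists. The promoter of Mcm3, a subunit of the MCM helicase, is shown for its 2 matches, in capitals, at chr1:20820263-20820562 (minus strand). A match of letters is a description and not a site of binding.
Mcm3: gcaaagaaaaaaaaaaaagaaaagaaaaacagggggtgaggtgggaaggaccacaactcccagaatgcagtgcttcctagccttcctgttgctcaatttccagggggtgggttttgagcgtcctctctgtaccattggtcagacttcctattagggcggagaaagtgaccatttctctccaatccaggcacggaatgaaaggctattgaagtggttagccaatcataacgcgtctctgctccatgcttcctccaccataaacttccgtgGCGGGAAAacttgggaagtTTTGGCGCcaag

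For the comparison of all other genes, each cell was thinned to 4000 UMIs, which kept all 542 dividing cells and left out 208 low-marker and 5 intermediate cells of replicate 2 as too shallow. UMIs were then summed over the cells of each class and library, so that the replicate is the library and not the cell. Levels are CPM, UMI counts scaled to a common total per sum, after TMM scaling, and log2 fold changes are those of edgeR's quasi-likelihood fit with the library as a block. The test covered 8145 genes, of which 706 (8.67%) were higher and 567 (6.96%) lower in dividing than in low-marker cells at an edgeR adjusted p of 0.05, or 15.6% in either direction. Scaling by library size alone gave 1062 higher and 370 lower, so that the share of higher genes among those called went from 55.5% to 74.2%, with the median of all genes at 0.15 in place of -0.01. Of the called genes, 1269 of 1273 moved the same way in both libraries, which the test on these same 2 libraries largely sets in advance. Over all genes tested, the log2 fold changes of the 2 libraries had a correlation of 0.656.

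Because the classes differed in depth before thinning, the fit was repeated, after this gap was seen, against the 186 and 99 low-marker cells at or above the 10th percentile of the dividing cells' UMIs, called deep low-marker cells here. Their medians were 23570 and 29112 UMIs, so they stayed shallower than the dividing cells, more so in replicate 2. In that fit 337 of 6444 genes were higher (5.23%) and 246 lower (3.82%), or 9.05% in either direction. Of the genes first called higher, 291 of the 627 tested again were called higher again, or 46.4%, and of those first called lower, 120 of 467, or 25.7%.

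**Figure D3:**
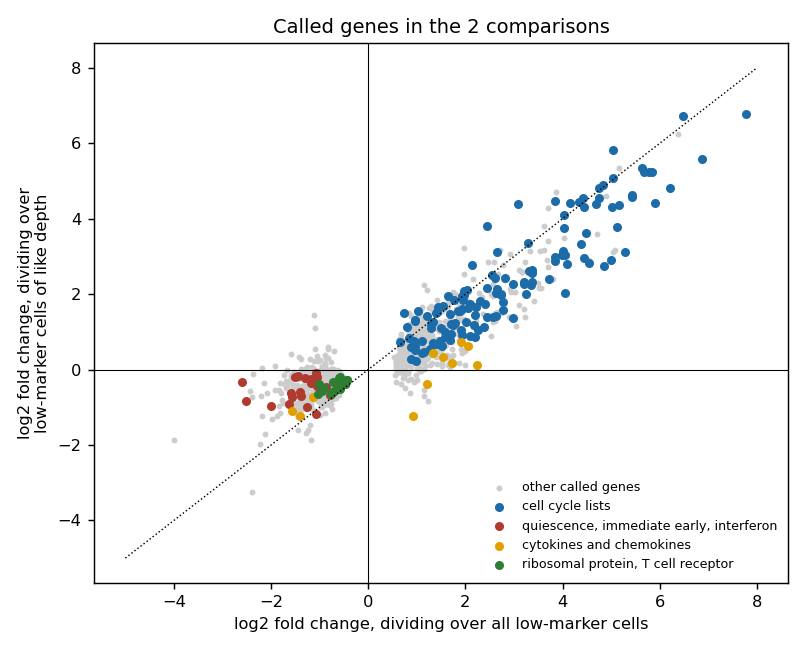
Log2 fold change of genes called in dividing over all low-marker cells (horizontal axis) against their log2 fold change over deep low-marker cells (vertical axis); the dotted line marks equality, and 1078 of 1094 genes are drawn, leaving out 16 with no UMI in the deep low-marker cells. Cell cycle genes lie along the line, mostly somewhat below it, while the quiescence, immediate early, interferon and cytokine genes lie nearer to 0 on the vertical axis.

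Genes of the cell cycle were higher in the dividing cells at every step of the cycle. In 7 lists that run from origin licensing to mitotic exit, 165 of 189 genes tested rose, beside 8.67% of all genes. Of these, 147 could be tested again, and 132 rose against deep low-marker cells. None of the 189 fell by edgeR, at an adjusted or an unadjusted p of 0.05, or by DESeq2, which called 151 higher; against the deep cells Hist1h2bc, a histone H2B gene, fell. The median log2 fold change over the 189 was 2.45, against -0.01 over all genes tested. The rule chose cells by genes of the same process, so this is a description of the cells and not independent evidence that they divide.

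Origin licensing and G1/S control came first in order: 21 of 22 genes rose, with a median of 2.23, and Mcm2 was the exception. Mcm5 stood at 120 and 150 CPM in dividing cells of replicates 1 and 2 against 55.0 and 30.6 CPM in low-marker cells, a log2 fold change of 1.68 ± 0.24 (SE). Mcm3 stood at 116 and 201 against 63.2 and 43.3 CPM. Ccne1 (cyclin E1, the partner of CDK2 at S phase entry) stood at 58.6 and 80.8 against 15.2 and 7.69 CPM. Against deep low-marker cells the differences were smaller, 0.78 for Mcm5, 0.63 for Mcm3 and 1.43 for Ccne1, and 17 of the list were called. Helicase genes thus differed less from the deepest low-marker cells than from all of them.

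DNA synthesis and nucleotide supply followed, with 35 of 36 genes higher and 29 also against deep low-marker cells. Rrm2, the subunit of ribonucleotide reductase that makes DNA precursors in S phase (chr12:24708241-24714146), stood at 206 and 362 CPM against 7.58 and 3.74 CPM, a log2 fold change of 5.65 ± 0.32. Tyms, thymidylate synthase, stood at 232 and 226 against 18.5 and 13.5 CPM. In thinned dividing cells of replicate 1, 47.1% had a UMI of Rrm2, against 2.37% of low-marker cells. The log2 fold change against deep low-marker cells was 5.33 for Rrm2 and 2.99 for Tyms. The gene listed as 2810417H13Rik, which codes for a PCNA-associated factor, rose from 10.9 and 5.20 CPM to 615 and 701 CPM. Pcna itself, the sliding clamp of DNA polymerase, was already at 150 and 56.6 CPM in low-marker cells and rose to 347 and 197 CPM.

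Chromatin proteins were higher for 20 of 25 genes, 15 of them also against deep low-marker cells. Hmgb2, a DNA-bending protein of dividing cells (chr8:57511907-57515999), stood at 1732 and 1904 CPM against 261 and 323 CPM, a log2 fold change of 2.65 ± 0.19, and its difference from deep low-marker cells was 3.10 ± 0.10. H2afz, the histone variant H2A.Z, went from 1134 and 788 to 2590 and 2200 CPM. Hist1h2ap, a replication histone, differed between the replicates: 118 CPM in dividing cells of replicate 1 and 919 CPM in replicate 2, against 5.62 and 9.36 CPM. Its log2 fold change was 5.86 ± 1.02 with an edgeR adjusted p of 0.0746, and 5.83 ± 0.31 with 5.4e-14 against deep low-marker cells. Messages of replication histones mostly lack the poly(A) tail that this assay primes from.

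Kinetochore and spindle genes showed the largest median fold changes of the 7 lists, in cells that the rule chose by genes of mitosis and G2. The mitotic entry and APC/C list had a median of 1.91. Among kinetochore and spindle checkpoint genes 27 of 29 rose, with a median of 4.04, and among spindle and cytokinesis genes 33 of 35, with a median of 4.03. Nusap1, a spindle protein (chr2:119618298-119651244), stood at 76.7 and 177 CPM in dividing cells against 2.25 and 0.624 CPM in low-marker cells, a log2 fold change of 6.48 ± 0.42. Aurkb, the kinase of the chromosomal passenger complex, stood at 74.6 and 80.8 against 1.97 and 1.04 CPM. Cenpf, of the outer kinetochore, stood at 57.9 and 85.6 against 2.25 and 2.08 CPM, and Spc24, of the NDC80 complex, at 142 and 89.3 against 7.58 and 1.87 CPM. The low-marker side of these differences rested on few UMIs, with Nusap1 seen in 0.704% and 0.281% of those cells after thinning. The size of such fold changes is therefore uncertain. Against deep low-marker cells 22 kinetochore and 27 spindle genes were higher.

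Genes of chromosome condensation, mitotic entry and exit were mixed. In the condensin, cohesin and separase list 12 of 19 rose, 11 of them also against deep low-marker cells, and in the mitotic entry and APC/C list 17 of 23, again 11 in both. Sgol1, shugoshin, which guards cohesin at the centromere, stood at 55.7 and 59.9 CPM against 1.40 and 0.208 CPM. It was seen in 0.440% and 0.0937% of thinned low-marker cells, so its difference too rested on few UMIs. Fbxo5, the inhibitor of the anaphase-promoting complex, stood at 68.0 and 179 against 3.93 and 4.78 CPM, and Cdca3, a mitotic entry factor, at 144 and 82.0 against 5.05 and 0.624 CPM. Core subunits of the anaphase-promoting complex such as Anapc1 and Cdc27, and the cohesin subunits Smc1a and Smc3, did not pass the test. Smc4, of condensin, differed by 0.27 ± 0.19 (adjusted p 0.393 by edgeR) from all low-marker cells and by 1.15 ± 0.15 (4.2e-07) from the deep ones.

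**Figure D4:**
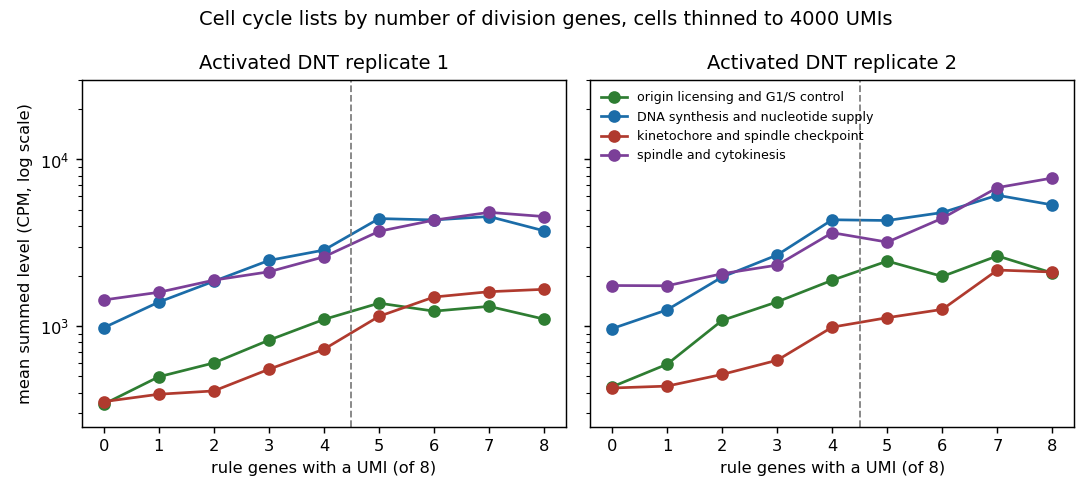
Mean summed level (CPM, log scale) of 4 cell cycle lists in cells thinned to 4000 UMIs, by the number of the 8 rule genes seen at full depth, for each activated library; the dashed line marks the rule. DNA synthesis rose from 980 and 967 CPM with none of the genes to 2862 and 4350 CPM with 4. The kinetochore list went from 353 and 426 to 728 and 988 CPM and then to 1665 and 2114 CPM with all 8. These CPM are not TMM-scaled.

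Cells with 2 to 4 rule genes lay between the other classes in S phase messages, and their G2/M sum had the medians of low-marker cells. The sum of 32 S phase genes had a median of 7 UMIs per thinned cell in replicate 1 and 12 in replicate 2, between 3 and 4 UMIs in low-marker and 15 and 21 in dividing cells. The sum of 33 G2/M genes had medians of 2 and 3 UMIs in these intermediate cells, the same as in low-marker cells, and of 8 and 12 in dividing cells. Mean levels did rise within the intermediate class, which was chosen by mitotic genes. The kinetochore list stood at 409 and 514 CPM in cells with 2 of the rule genes and at 728 and 988 CPM in cells with 4. Low-marker cells with none of the rule genes had 353 and 426 CPM. These CPM are not TMM-scaled. No rule gene is in the S or the G2/M sum. The intermediate cells were deeper than the low-marker ones before thinning, at 21498 and 24577 UMIs, and the part of depth in this was not tested.

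**Figure D5:**
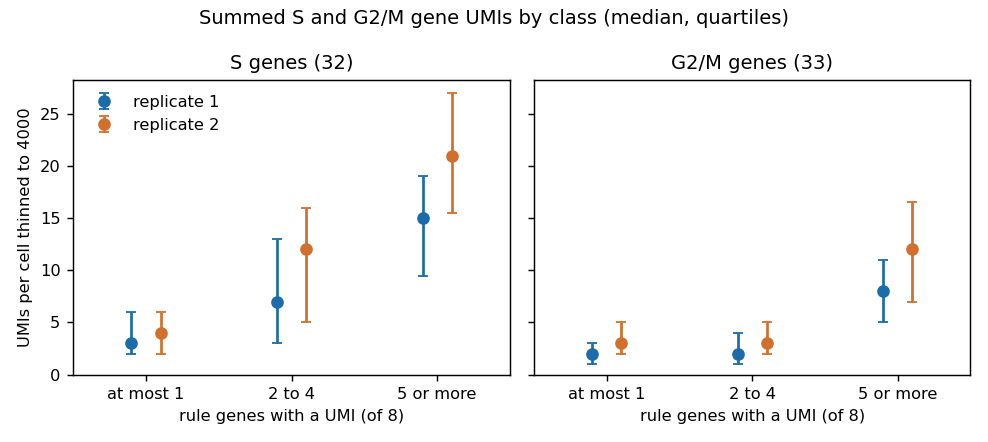
Sums of 32 S phase genes (left) and 33 G2/M genes (right) in UMIs per cell thinned to 4000 UMIs, by class and activated library; points are medians and bars the quartiles over cells. The S sum rises in 2 steps from low-marker to dividing cells, and the G2/M sum has the same medians, 2 and 3 UMIs, in low-marker and intermediate cells.

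The S and G2/M sums varied among the dividing cells. The S sum exceeded the G2/M sum in 75.2% of them in replicate 1 and 77.1% in replicate 2, as it did in 62.0% and 55.8% of low-marker and 80.5% and 81.9% of intermediate cells, and 293 of 367 and 159 of 175 had at least 5 UMIs of both. The cells of each library were ranked by the S share of the 2 sums and parted into terciles, which are ranges of a score and not cell types. Of the rule genes, none of which is in the sums, Ccnb1, Ube2c and Mki67 followed this order in both libraries. Ccnb1 was highest where the S share was lowest, with 61.0, 30.7 and 18.4 CPM from the lowest to the highest tercile in replicate 1 and 93.2, 60.3 and 21.6 CPM in replicate 2. Ube2c went the same way, with 415, 213 and 117 CPM and with 377, 151 and 86.2 CPM, and Mki67 with 89.4, 75.8 and 49.2 CPM and with 343, 254 and 151 CPM. Top2a did not follow it, with 248, 268 and 205 CPM and with 508, 595 and 362 CPM, nor did Birc5, Ccna2, Cdk1 and Cdc20 in at least 1 library. Ccne1 went the other way, with 28.5, 51.2 and 86.1 CPM and with 80.5, 99.1 and 103 CPM. Cells with the lowest S share were also the deepest, at a median of 35859 and 53958 UMIs against 27442 and 45060 at the highest. Ifng did not follow the score alike in both libraries: 366, 391 and 1043 CPM in replicate 1 and 953, 1034 and 772 CPM in replicate 2. These CPM are not TMM-scaled.

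Among cyclin D, RB and CDK inhibitor genes 7 of 19 rose and 3 fell, beside 8.67% and 6.96% of all genes. Of these, Cdk2 and Cdkn2c rose and Btg1 fell in both comparisons. Cdk2, the kinase of S phase, went from 7.86 and 6.03 to 38.4 and 33 CPM, and Cdkn2c, the inhibitor p18 of CDK4 and CDK6, from 11.2 and 9.56 to 40.5 and 31.8 CPM. Both rose against deep low-marker cells too, by 1.93 and 1.60 on the log2 scale. Cdkn1a, the inhibitor p21, rose from 338 and 270 to 697 and 488 CPM (log2 fold change 0.94 ± 0.20, edgeR adjusted p 0.000677), and stood at 0.53 ± 0.16 with an adjusted p of 0.0509 against deep low-marker cells. Btg1, an antiproliferative gene, was lower in both replicates, at 485 and 658 CPM against 827 and 1240 CPM, and fell in both comparisons, by 0.84 and by 0.60 on the log2 scale. Ccnd2, cyclin D2, which acts in G1 before this stage, was at 842 and 637 CPM in dividing and 1132 and 612 CPM in all low-marker cells, with an edgeR adjusted p of 0.549. Against deep low-marker cells, which had 1624 and 1070 CPM in that fit, it was lower by -0.82 ± 0.09 (adjusted p 5.9e-09).

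Ribosomal protein genes were lower in dividing cells in both comparisons. Of 20 tested, 15 fell against all low-marker cells, with a median of -0.50, beside 6.96% of all genes. Against the deep ones 19 fell, with a median of -0.33, beside 3.82% of all genes. All 15 were among the 19. Rps27 stood at 5230 and 2277 CPM against 10275 and 4783 CPM (log2 fold change -1.02 ± 0.15, edgeR adjusted p 2.4e-06). Rps7 stood at 3295 and 2693 against 6964 and 4807 CPM. The summed level of the list, not TMM-scaled, fell with the number of rule genes. It went from 132522 CPM with none to 100829 CPM with all 8 in replicate 1, and from 97866 to 74371 CPM in replicate 2. These are shares of all UMIs of a cell, so with more RNA per cell a lower share need not be fewer molecules. Of 22 genes of the nucleolus and of MYC-driven growth 2 rose, Srm and Nolc1, beside 8.67% of all genes. Neither was called against deep low-marker cells, where Fbl and Eif4a1 fell.

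The T cell receptor complex was also lower. Of 12 genes of the complex and its signalling 7 fell, with a median of -0.58, beside 6.96% of all genes. Of these 7, 4 fell in both comparisons, Cd3d, Cd3e, Cd3g and Zap70. Over all genes first called lower, 25.7% of those tested again did. Cd3d stood at 573 and 677 CPM in dividing cells against 1137 and 943 CPM in low-marker cells (-0.74 ± 0.18, edgeR adjusted p 0.00406), and at -0.59 ± 0.09 (1.3e-05) against the deep ones. Zap70, the kinase that binds the CD3 chains, stood at 89.8 and 88.1 against 172 and 130 CPM. Of 6 T cell markers 5 fell, and Cd5, a brake on receptor signals, rose (0.94 ± 0.23, edgeR adjusted p 0.00354), with -0.33 ± 0.16 (0.248) against the deep cells. At least 1 UMI of the 6 was in 99.2% and 100% of them after thinning. In replicate 2, whose reference holds the receptor genes, Trac was in 99.4% and Trbc2 in 100% of dividing cells at full depth, and Trdc of the γδ receptor in 5.14% against 4.71% of low-marker cells. At equal depth, Trdc was in 0.571% of dividing and 3.74% of low-marker cells, Tcrg-C1 in 3.43% and 3.93%, Tcrg-C2 in 8% and 14.1%, and Tcrg-C4 in 4.57% and 11%.

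Markers of other cells were measured in the same thinned cells, as CPM that are not TMM-scaled. B cell markers summed to 17.7 and 10.0 CPM in dividing against 7.26 and 15 CPM in low-marker cells. Cd79b gave nearly all of it except in low-marker cells of replicate 2. There Cd79b gave 41 of 64 UMIs, Cd79a 14, Ebf1 6 and Ms4a1 3. Cd4, Cd8a and Cd8b1 summed to 5.45 and 4.29 against 10.1 and 5.15 CPM, and the 5 red cell markers to 0 in dividing cells. Of the 7 myeloid markers Cst3 and Fcer1g gave nearly all of the 277 and 399 CPM, against 315 and 415 CPM, with Lyz2, Csf1r, C1qa and C1qb at 0 in dividing cells of both replicates. The 5 NK cell markers summed to 107 and 226 CPM in dividing against 263 and 261 CPM in low-marker cells, nearly all of it Klrd1 and Eomes, with Ncr1 and Klra8 at 0 in both classes. In replicate 2, Ighm, the heavy chain of IgM, had a UMI in 64.0% of dividing and 40.2% of low-marker cells at full depth, and in 13.1% and 26.4% after thinning. The part of other cells or of free RNA in the results was not tested. Scrublet called at most 0.549% of any class doublets, too few to be informative, and the 2 activated libraries shared 0 barcodes. B cell, myeloid or red cell markers other than Cst3 and Fcer1g gave 2 or more UMIs in 8.17% and 12% of the deeper dividing cells against 1.76% and 1.02% of low-marker cells.

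Several other T cell genes were lower in dividing cells in both comparisons. Of 18 p53 target and BCL2 family genes 3 rose and 2 fell, beside 8.67% and 6.96% of all genes, and of these Bcl2 held in both. Of 6 coinhibitory receptors Cd160 fell in both and Lag3 against all low-marker cells alone (-0.52 ± 0.28, edgeR adjusted p 0.314, against the deep ones). Ltb, lymphotoxin beta (chr17:35194439-35196320), stood at 144 and 157 CPM against 332 and 599 CPM (-1.58 ± 0.21, edgeR adjusted p 9.4e-07), and at -1.11 ± 0.15 (2.7e-06) against deep low-marker cells. Srgn, serglycin, the proteoglycan of secretory granules (chr10:62493833-62527451), stood at 1084 and 1220 against 1699 and 2152 CPM, and its difference from the deep cells, -0.79 ± 0.08, was no smaller than that from all. Bcl2, the survival factor (chr1:106538178-106714274), stood at 135 and 225 against 542 and 568 CPM (-1.69 ± 0.22), of which -0.49 ± 0.15 (edgeR adjusted p 0.0312) was left against the deep cells. Cd69, Cd160, Klra7, Tnfsf14 and the interferon-induced GTPase Ifi47 likewise passed the test in both, with log2 fold changes of -0.72, -0.84, -0.94, -1.24 and -0.96 against the deep cells.

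Of the 291 genes higher in both comparisons, 159 were outside the 7 cell cycle lists, among them Batf3, Tfrc, Cdk2, Cdkn2c and Cycs. The lists are not complete, so the 159 still hold genes of replication and the cell cycle, such as 2810417H13Rik and Cdk2. Batf3, an AP-1 family factor (chr1:191097847-191108945), stood at 103 and 82.0 CPM in dividing against 26.1 and 7.90 CPM in low-marker cells (2.57 ± 0.28, edgeR adjusted p 1.9e-08), and at 1.25 ± 0.24 (0.000294) against the deep ones. It was the only one of 21 lineage transcription factors called higher in both, and Zbtb32 was called higher against all low-marker cells alone. Of the same list Ikzf3, Eomes and Ikzf2 fell against all low-marker cells, and none of them was called against the deep ones. Thus 2 of 21 rose and 3 fell against all low-marker cells, beside 8.67% and 6.96% of all genes. Eomes stood at -1.10 ± 0.25 (edgeR adjusted p 0.00208) and then at 1.10 ± 0.39 (0.0754), and Ikzf2 at -0.71 ± 0.21 (0.0174) and then at 0.50 ± 0.22 (0.188). Of 18 activation and costimulatory receptors 4 rose and 5 fell, beside 8.67% and 6.96% of all genes, and 2 of these 9, Tfrc and Cd69, were called again against the deep cells. Tfrc, the transferrin receptor (chr16:32608920-32632794), stood at 125 and 131 against 51.1 and 32.9 CPM, and at 1.15 ± 0.21 against the deep cells. Cycs, cytochrome c, was the only one of 21 respiration genes that rose, beside 8.67% of all genes. Its rise was 0.60 and then 0.39 on the log2 scale.

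Genes of resting T cells were lower in dividing than in all low-marker cells, and few passed the test against the deep ones. Few of all genes first called lower did so either, 120 of the 467 tested again, or 25.7%. The lists below are too small to be told apart from that share. Of 16 quiescence and homing genes 9 fell, with a median of -0.98, beside 6.96% of all genes. None of these 9 was called by edgeR against deep low-marker cells, where 2 of the 9 had an unadjusted p under 0.05. DESeq2, run against all low-marker cells, called 3 of the list lower. Klf2, which keeps T cells quiescent and homing (chr8:72319033-72321656), stood at 18.8 and 23.2 CPM against 57.6 and 267 CPM (-2.60 ± 0.33, edgeR adjusted p 6.7e-06), while the deep low-marker cells had 20.8 and 35.4 CPM (-0.33 ± 0.38, 0.719). Tcf7 gave -1.44 ± 0.28 and then -0.16 ± 0.29. Of 19 immediate early genes 8 fell (4 by DESeq2), and of the 6 that could be tested again edgeR called none against the deep cells, with 1 at an unadjusted p under 0.05. Nr4a1, induced by receptor signals (chr15:101254269-101274795), stood at 44.2 and 22.0 against 177 and 214 CPM (-2.51 ± 0.26). Against the deep ones it gave -0.83 ± 0.40 (edgeR adjusted p 0.296), and the replicates differed. In that fit it stood at 44.9 against 43.1 CPM in replicate 1 and at 22.8 against 96.6 CPM in replicate 2. Of 14 interferon response genes 6 fell, and of the 5 tested again Ifi47 alone fell in both comparisons. Of the 15 abundant genes with the largest falls, Ifi47 and Bcl2 were the 2 still called. Depth moved with the class here, and its part in these differences was not tested beyond this.

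Ccr7, the lymph node homing receptor, was an exception that the libraries showed in different ways. It stood at 42.0 CPM in dividing against 150 CPM in low-marker cells of replicate 1, and at 204 against 124 CPM in replicate 2, where the order was the opposite. The edgeR adjusted p was 0.784. Against deep low-marker cells, with 92.6 and 394 CPM, it was lower in both replicates (-0.97 ± 0.17, 5.9e-05).

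Effector genes were higher in dividing than in all low-marker cells in part, and none of these calls was met again against the deep cells. Over all genes first called higher, 46.4% of those tested again were called again. Of 26 cytokine and chemokine genes 8 rose against all low-marker cells (6 by DESeq2), beside 8.67% of all genes. Against the deep ones edgeR called none higher, beside 5.23% of all genes, with 1 at an unadjusted p under 0.05. Ccl20 stood at 395 and 149 CPM against 115 and 19.5 CPM (2.23 ± 0.31, edgeR adjusted p 0.0003), and at 0.12 ± 0.83 (0.976) against the deep cells. Tnfrsf4 (OX40) stood at 403 and 114 against 143 and 22.0 CPM, and at 0.18 ± 0.15 (edgeR adjusted p 0.584) against the deep cells. Of 10 cytotoxic granule genes 3 rose, Gzmc, Prf1 and Serpinb9, beside 8.67% of all genes. None of the 3 was called against the deep cells, too few to be told apart from the share over all genes. Gzmb, granzyme B, stood at 2888 and 4669 CPM in dividing against 2120 and 453 CPM in low-marker cells, and its difference, 1.74 ± 1.09, did not pass the test (edgeR adjusted p 0.477). The difference was 0.29 ± 0.41 (0.819) against the deep cells. Ifng likewise gave 1.47 ± 0.59 (0.243) and 0.20 ± 0.10 (0.274 by edgeR). A p above the threshold does not show that dividing and non-dividing cells carry equal amounts.

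Among genes of cholesterol and lipid synthesis 6 of 18 rose, and of 17 glycolysis genes 4 (1 each by DESeq2), beside 8.67% of all genes. Against deep low-marker cells edgeR called none of those tested again, with 4 and 1 at an unadjusted p under 0.05. Of all genes first called higher, 46.4% of those tested again were called again. Gapdh differed by 0.19 ± 0.18 from all low-marker cells and by -0.29 ± 0.07 (edgeR adjusted p 0.00462) from the deep ones. Pdcd1 (PD-1) moved in a like way, with -0.03 ± 0.23 and then -0.78 ± 0.20 (edgeR adjusted p 0.00816). The 4 genes called higher against all low-marker cells and lower against the deep ones were S100a4, Cd52, Il4 and Ckb, which were chosen after their values were seen. S100a4, a calcium-binding protein of activated T cells, gave 1.14 ± 0.25 and then -0.71 ± 0.18, and Il4 0.91 ± 0.29 and then -1.23 ± 0.25. For these genes the sign of the difference rested on which low-marker cells were the comparison.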

How the data were processed

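The 7 matrices hold raw UMI counts per gene and barcode, deposited by the authors without normalization. Cell Ranger 2.1.0 and 3.0.1 and the mm10 (GRCm38) build are named in the submitters' processing notes, and version 3.0.2 stands in the header of both kit v3 files. The activated libraries held 34677270 (kit v2) and 25452158 (kit v3) UMIs. Barcodes were kept at 200 or more genes and at most 10% mitochondrial UMIs, and the 27514 gene IDs in both references were used. The labels' numbers 1 and 2 name the activated libraries, and the design text of the series calls them biological replicates.

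Cells were thinned to 4000 UMIs with a fixed seed, and UMIs were summed per library and class (5 or more, 2 to 4, at most 1 rule gene). Low genes were removed from the 6 sums with filterByExpr, TMM factors were computed, and the test was that of edgeR 4.0.16 (robust quasi-likelihood F test, R 4.3.3), with Benjamini-Hochberg adjustment at 0.05. The library was a block, because the classes pair within a culture. This left 2 residual degrees of freedom, with a biological coefficient of variation of 0.152. The rule genes were left out of the test. On counts simulated for this comparison over 8145 genes, the test recovered 4, 18, 46 and 46 of 50 genes changed by 1.5, 2, 4 and 8 times, with 9 false calls. Thinning and sums used Python 3.11.15 and NumPy 2.4.6, and Scrublet ran in scanpy 1.11.5.

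Genes named are the rule genes, the 15 largest rises and falls among called genes at 50 CPM or more in both libraries, and in each list up to 4 with the largest fold change at that level plus the 2 most abundant. Others were chosen after their values were seen. The members, the lists and the rule were chosen with earlier results of these data known. Gene coordinates are from GENCODE vM21 (GRCm38), where 161 of 161 IDs matched, and promoters are from RefSeq. Alternatives changed the depth of thinning, the rule, the comparison cells, the filters, the scaling and the tool.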

Additional observations from a re-analysis of the deposited data

How the results depend on the processing

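The counts of genes higher and lower in dividing cells, 706 and 567, moved by more than 1.5 times under 7 alternatives. They were 453 and 343 with thinning to 2000 UMIs, 259 and 152 with classes read after thinning, 96 and 105 without barcodes with 2 or more UMIs of B cell, myeloid or red cell markers, which removed most dividing cells through Cst3 and Fcer1g, and 337 and 246 against deep low-marker cells. With library size only as the scaling they were 1062 and 370, and with DESeq2 363 and 172. With no replicate block they were 81 and 1, and 45 of the 57 named genes past the threshold were then no longer called. Why the counts moved was not tested. Classes of the same library are paired, so the fit with the block is the one reported. Thinning to 8000 UMIs, no thinning, another seed, thresholds of 4 or 7 rule genes, comparison cells with none, a 5% mitochondrial limit, upper quartile scaling, no filter on low counts, removal of Scrublet doublets or of the deepest 5% of barcodes, and a fit of only the 2 classes kept both counts within 1.5 times. The deep comparison and a marker filter without Cst3 and Fcer1g were chosen after seeing the data.

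The share of dividing cells in replicate 1 was 23.6% with 4 or more and 13.4% with 7 or more rule genes, and 2.85% and 0.782% after thinning to 4000 and 2000 UMIs. In replicate 2 it was 8.72% with 7 or more, and 3.44% and 0.684% after thinning, of the barcodes with enough UMIs.

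Of 73 named genes, these changed sign, and the cause was not tested. Against deep low-marker cells the log2 fold change was -0.33 for Cd5, -0.33 for Cd52, -0.63 for Ckb, 1.10 for Eomes, -0.29 for Gapdh, 0.50 for Ikzf2, -1.23 for Il4, -0.051 for Mcm2 and -0.71 for S100a4. With classes read after thinning it was -0.017 for Gapdh, 0.087 for Hist1h2bc and -1.58 for Il4. Pdcd1 was at 0.14 with thinning to 2000 UMIs, 0.035 with 7 or more rule genes, 0.12 with comparison cells with none and 0.13 with library size only, where Eif4a1 was at 0.0331, and Ccr7 was at 0.10 under the marker filter. Leaving out a library leaves no residual degrees of freedom among samples, so it gives fold changes with no test. These reversed for 7 genes, none of them called against all low-marker cells, though all 7 were called lower against the deep ones: without replicates 1 and 2 in turn the values were 0.058 and -0.43 for Ccnd2, 0.71 and -1.82 for Ccr7, 0.31 and -0.55 for Eif4a1, 0.14 and -0.64 for Fbl, 0.57 and -0.18 for Gapdh, 0.29 and -0.68 for Hist1h2bc, and 0.25 and -0.28 for Pdcd1.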

Other observations

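Depth limits the account of the dividing cells in 2 ways. The rule needs 5 of 8 messages to be seen, so dividing cells with few UMIs fall into the other classes, and the deep low-marker cells remained shallower than the dividing cells. The 542 cells came from 2 libraries made with different kits. With the library as a block, the p-values measure how the differences among the 3 classes varied between these 2 libraries alone. They do not measure the difference in level between the libraries. Levels are shares of the UMIs of a cell, not molecules per cell. Groups of 3 or fewer libraries were not examined for outlying samples.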
